A study of Mus musculus with 4 samples.

Results

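Genes of the epithelial-mesenchymal transition were examined in insulin-positive cells reprogrammed from mouse gallbladder. The set comprised 10 of the 20377 genes of the deposited table, chosen by symbol. Cdh1 and Epcam stood for the epithelial state. Cdh2, Vim, Snai1, Snai2, Twist1, Twist2, Zeb1 and Zeb2 stood for the mesenchymal one. All 10 had a row and none was at 0 in every library.

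The series holds 1 group, named rGBC2, with 4 libraries numbered as replicates 1 to 4. Primary gallbladder cells, expanded in culture, came from C57BL/6 mice aged 8 weeks that carry MIP-GFP, or B6.Cg-Tg(Ins1-EGFP)1Hara/J, a green fluorescent reporter driven by an Ins1 promoter. All 4 samples received Pdx1, Ngn3, Mafa and PAX6 and compounds not named in the labels over 10 days, and were then sorted for the reporter. The labels do not say whether the libraries came from separate animals, cultures or sorts. The p-values therefore measure the spread between these samples, which may be technical in part. Starting cells and native cells are not analysed here, and each value therefore describes a level in the sorted cells, not a change during reprogramming.

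In an epithelium, E-cadherin (Cdh1) joins neighbouring cells at adherens junctions, and EpCAM (Epcam) is a surface glycoprotein that modulates adhesion. In the epithelial-mesenchymal transition, zinc finger factors of the Snail and Zeb families and helix-loop-helix factors of the Twist family repress epithelial genes, and N-cadherin (Cdh2) and the intermediate filament vimentin (Vim) come up. Snail and Zeb factors recognise DNA elements known as E-boxes, of which CACCTG is the classical form at epithelial promoters.

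The libraries were not equally alike. RPKM, a read density corrected for gene length and library size, carries no read totals. Depths of 22.1 M to 33.2 M reads were estimated from the steps between low values, and Gapdh, which most cells use, stood between 0 and 0.2 RPKM, so a listed 0 can be a failure of counting. Insulin and biliary genes fitted the labels in part, with Ins2 at 1091 to 4240 RPKM, Krt7 at 466 to 802 RPKM and Krt19 at 72.0 to 103 RPKM in the 4 libraries, while Sox9, a regulator of bile duct cells, stood at 0.61 to 1.2 RPKM. Replicates 3 and 4 differed by an SD of 0.15 on the log2(RPKM + 1) scale across genes, against 0.50 to 0.68 for the other 5 pairs, although by estimated reads they still differed more than sampling noise allows (chi-square per degree of freedom 13.5). The Y-linked gene Eif2s3y stood at 48.5 RPKM in replicate 1 and 44.7 RPKM in replicate 2, and at 0 in the other 2 libraries.

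Promoter sequences are given for a highly and a weakly transcribed member that share an E-box. RefSeq windows on GRCm38.p6 were matched for 6 of the 10 members, and the 250 bases before the transcript start were searched for CACCTG, or CAGGTG for the opposite strand. No window was matched for Cdh1, Cdh2, Snai2 or Zeb1, so their promoters were not searched. The element was found upstream of Epcam and Snai1, and not in the windows of Vim, Twist1, Twist2 and Zeb2. It begins 187 and 19 bases before the Epcam start and 126 bases before the Snai1 start. Of 32851 such windows, 17.2% hold at least 1 copy and 2.06% hold at least 2. The Epcam window is chr17:87635729-87635978 and the Snai1 window chr2:167537945-167538194, both on the plus strand, with the E-boxes in capitals.
Epcam: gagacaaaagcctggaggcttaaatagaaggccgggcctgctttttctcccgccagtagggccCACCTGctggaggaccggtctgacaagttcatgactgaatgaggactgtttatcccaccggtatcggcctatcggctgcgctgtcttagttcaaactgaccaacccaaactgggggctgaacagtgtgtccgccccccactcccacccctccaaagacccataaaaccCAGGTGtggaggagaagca
Snai1: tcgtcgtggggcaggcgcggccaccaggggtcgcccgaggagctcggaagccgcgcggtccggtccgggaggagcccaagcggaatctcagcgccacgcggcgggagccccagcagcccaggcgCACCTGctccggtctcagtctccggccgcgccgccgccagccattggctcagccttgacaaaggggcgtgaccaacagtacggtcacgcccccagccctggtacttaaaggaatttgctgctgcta

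Both epithelial genes were abundant. Cdh1 was measured at 87.3, 82.9, 118 and 122 RPKM in replicates 1 to 4, a mean of 102 ± 20.1 RPKM (SD, n = 4). It was higher in replicates 3 and 4 than in replicates 1 and 2. So were 29.7% of all genes with a mean of at least 1 RPKM, and 41.2% had the opposite order. Epcam stood at 161, 239, 191 and 215 RPKM, a mean of 201 ± 33.7 RPKM (SD, n = 4), with the lowest value in replicate 1 and no order between the pairs of libraries. Epcam exceeded Cdh1 in every library. Cdh1 ranked at percentile 94.4 to 96.1 and Epcam at percentile 97.9 to 98.6 among the genes of a library. Both lay above 1 RPKM (limma with Benjamini-Hochberg adjustment over 16919 genes, adjusted p = 3.06e-07 for Cdh1 and 2.32e-07 for Epcam). In pooled cells, fewer cells of a kind and less RNA per cell cannot be told apart. In build mm9, which also holds for the positions given for the other members, Cdh1 lies on chromosome 8 (109127268 to 109194146) and Epcam on chromosome 17 (88035319 to 88050467).

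**Figure D1:**
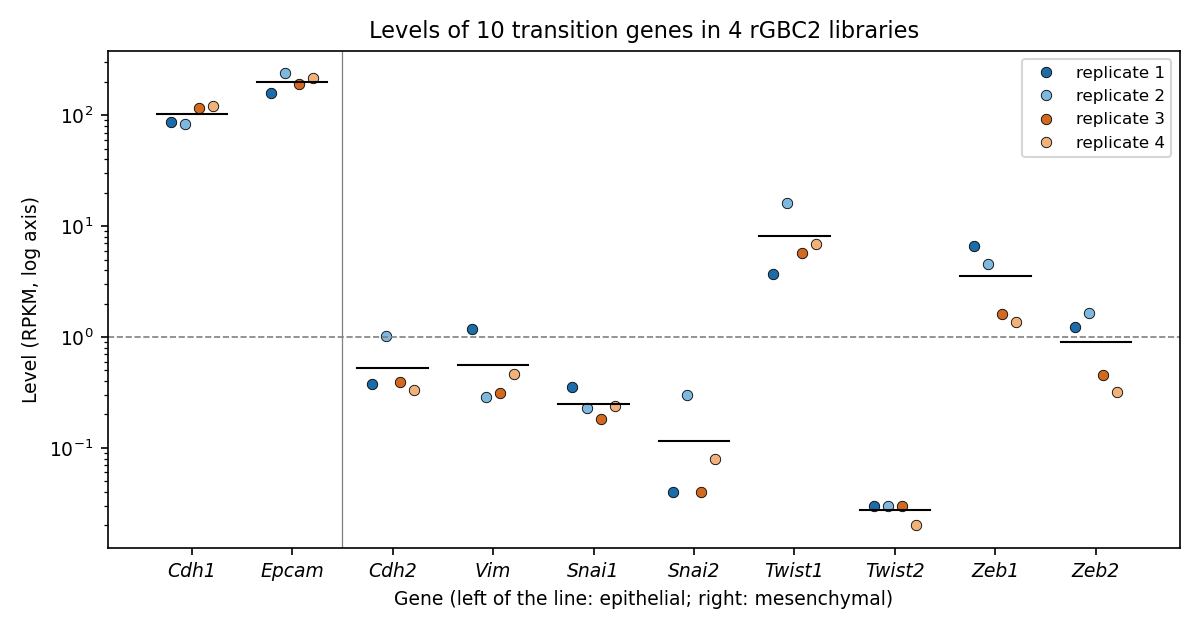
Level of each member in RPKM on a log axis, with points for the 4 libraries, a short line at their mean and a dashed line at 1 RPKM. Cdh1 and Epcam lie between 82.9 and 239 RPKM, and the mesenchymal genes lie at or below 16.3 RPKM.

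The 2 mesenchymal structural markers were low. Cdh2, on chromosome 18 from 16747386 to 16967558, encodes the cadherin of mesenchymal, neural and islet cells. It stood at 0.38, 1.02, 0.39 and 0.33 RPKM in replicates 1 to 4, with replicate 2 above the others. Those values correspond to 44 to 109 estimated reads. Vim, on chromosome 2 from 13495938 to 13504453, encodes the filament of fibroblasts, endothelium and many cultured cells. Its values were 1.17, 0.29, 0.31 and 0.46 RPKM, with replicate 1 highest, from 14 to 62 estimated reads. Both lay below 1 RPKM in the test (limma, adjusted p = 0.0153 for Cdh2 and 0.0352 for Vim), but neither call held in every subset of libraries. The Vim call was lost without replicate 2, 3 or 4, with limma adjusted p from 0.0765 to 0.136, and the Vim mean of 0.558 ± 0.415 RPKM (SD, n = 4) became 0.353 RPKM without replicate 1. The Cdh2 call was lost without replicate 1 (limma, adjusted p = 0.0649). With each library scaled to the same sum, limma adjusted p was 0.796 for Cdh2 and 0.907 for Vim, and neither was called. The Vim call was also lost with replicates 3 and 4 averaged (limma, adjusted p = 0.0898), in limma without a trend (adjusted p = 0.0632) and with genes at 0 in every library kept in the fit (limma, adjusted p = 0.0718).

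Snail and Slug, the zinc finger repressors encoded by Snai1 and Snai2, were near the limit of counting. Snai1, on chromosome 2 from 167363727 to 167368311, stood at 0.35, 0.23, 0.18 and 0.24 RPKM in replicates 1 to 4, which is 7 to 14 estimated reads per library. Snai2, on chromosome 16 from 14705952 to 14709475, stood at 0.04, 0.30, 0.04 and 0.08 RPKM, or 2, 13, 2 and 5 estimated reads. The Snai2 value of replicate 2 has an exact 95% Poisson interval of 0.155 to 0.498 RPKM, against 0.00495 to 0.148 RPKM in replicate 1. These intervals cover counting error only. Both genes lay below 1 RPKM (limma, adjusted p = 1.44e-05 for Snai1 and 3.42e-05 for Snai2), and the Snai2 mean of 0.115 RPKM became 0.0533 RPKM without replicate 2. Snai1 exceeded Snai2 in 3 libraries, and in replicate 2 the order was the reverse.

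Twist1 was the most abundant mesenchymal member by mean, and its relative Twist2 was at the level of single reads. Twist1, a helix-loop-helix factor of mesoderm and neural crest on chromosome 12 from 34642536 to 34644696, stood at 3.67, 16.3, 5.74 and 6.85 RPKM in replicates 1 to 4. Replicate 2 was highest, and without it the mean of 8.15 ± 5.62 RPKM (SD, n = 4) became 5.42 RPKM. With 145 to 588 estimated reads, Twist1 lay above 1 RPKM (limma, adjusted p = 0.00159), also without each replicate in turn. Twist2, on chromosome 1 from 93698054 to 93744604, stood at 0.03 RPKM in replicates 1 to 3 and 0.02 RPKM in replicate 4, which is 1 estimated read in each library. Its level was below 1 RPKM (limma, adjusted p = 2.29e-07), under the 0.0680 to 0.102 RPKM that 3 reads on its transcript would give. In the GENCODE annotation 46.5% of the Twist2 exon bases also lie in exons of a gene on the opposite strand, so even those reads cannot be assigned with certainty.

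The Zeb factors, large repressors with zinc fingers at both ends and a homeodomain between them, differed from each other and between libraries. Zeb1, on chromosome 18 from 5591889 to 5774909, stood at 6.67, 4.55, 1.61 and 1.37 RPKM in replicates 1 to 4. Zeb2, on chromosome 2 from 44839154 to 44968799, stood at 1.22, 1.63, 0.45 and 0.32 RPKM. For both genes replicates 1 and 2 lay above replicates 3 and 4 without overlap. This order is common, at 41.2% of all genes with a mean of at least 1 RPKM, against 29.7% for the opposite order. The mean of Zeb2 lies under that level. Zeb1 lay above 1 RPKM at 3.55 ± 2.53 RPKM (SD, n = 4; limma, adjusted p = 0.0313), but not without replicate 1 (limma, adjusted p = 0.0840) or replicate 2 (limma, adjusted p = 0.112), nor with genes at 0 in every library kept in the fit (limma, adjusted p = 0.0635). Zeb2, at 0.905 ± 0.626 RPKM (SD, n = 4), passed in neither direction (limma, adjusted p = 0.531). Exons of Zeb2os on the opposite strand cover 3.27% of the Zeb2 exon bases, and the strand setting of the counting is not given in the sources used here.

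In all, 4 of the 10 members lay above 1 RPKM, against 65.0% of all genes tested, and 5 lay below it, against 26.1%. Those above were Cdh1, Epcam, Twist1 and Zeb1. By mean level the mesenchymal members ran from Twist1 through Zeb1, Zeb2, Vim, Cdh2, Snai1 and Snai2 to Twist2. Several neighbours in that order overlapped in their values. Zeb1 exceeded Twist1 in replicate 1, at 6.67 against 3.67 RPKM, Vim and Cdh2 exchanged places between libraries, and the ranges of Zeb2 and Vim overlapped. The median of the 8 mesenchymal means was 0.544 RPKM, against 7.38 RPKM over all genes tested.

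Epithelial genes exceeded mesenchymal genes in each library. The lower of the 2 epithelial genes was 13.1, 5.07, 20.5 and 17.7 times the highest mesenchymal gene in replicates 1 to 4, and this gap was smallest in replicate 2, where Twist1 was highest. On the log2(RPKM + 1) scale, the mean over Cdh1 and Epcam was 7.16 ± 0.19 and that over the 8 mesenchymal genes 0.95 ± 0.25 (SD, n = 4). Their difference was 5.85, 5.89, 6.50 and 6.59 in replicates 1 to 4, or 6.21 ± 0.39 (SD, n = 4). Replicates 3 and 4 had the larger differences. Twist1 and Zeb1 together made up 76.4% to 85.6% of the summed RPKM of the mesenchymal members.

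Cdh1 was also set against Cdh2 and Epcam against Vim, although these genes are themselves part of the difference of means above. Cdh1 was 230, 81.2, 302 and 368 times Cdh2 in RPKM in replicates 1 to 4, and Epcam was 137, 825, 615 and 468 times Vim. On the log2(RPKM + 1) scale Cdh1 minus Cdh2 was 6.08 ± 0.52 and Epcam minus Vim 7.04 ± 0.57 (SD, n = 4), with the epithelial gene higher in 4 of 4 libraries. Within families, Twist1 minus Twist2 was 2.98 ± 0.80 and Zeb1 minus Zeb2 1.14 ± 0.45 on that scale, also positive in 4 of 4 libraries, whereas Snai1 minus Snai2 was 0.17 ± 0.19 and positive in 3. In the exact two-sided sign-flip permutation test the Snail pair gave p = 0.25 and the other 4 pairs each gave p = 0.13, the smallest value 4 libraries allow, with 0.156 after adjustment over the 5 differences. None can pass 0.05 in this design.

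Other cadherins were measured alongside Cdh1 and Cdh2. Of 24 numbered cadherin genes, 4 were listed at 0 in all libraries (Cdh9, Cdh12, Cdh18 and Cdh19) and were not tested. Of the other 20, 6 lay above 1 RPKM, against 65.0% of all genes tested, 10 lay below it, against 26.1%, and 4 met neither call. Cdh4, R-cadherin, which is found in retina, brain and early endoderm, was higher than Cdh1 in every library at 487, 215, 324 and 304 RPKM in replicates 1 to 4. It is a relative of Cdh2, and Cdh4 was the cadherin with the highest mean of the 24. Cdh13, which lacks a cytoplasmic tail, stood at 12.4 ± 5.36 RPKM, Cdh22 at 8.15 ± 3.02 RPKM and Cdh6, the kidney cadherin, at 7.14 ± 5.48 RPKM (SD, n = 4). Cdh6 was at 15.3 RPKM in replicate 1 and its mean was 4.43 RPKM without it. Cdh3, P-cadherin, stood at 1.44 ± 0.128 RPKM and its call was lost without replicate 1, 3 or 4 (limma, adjusted p = 0.0526 to 0.153). Cdh23, a cadherin of inner ear hair cells, stood at 0.78, 0.96, 9.65 and 8.82 RPKM in replicates 1 to 4 and met neither call (limma, adjusted p = 0.0975). Cdh17, the liver-intestine cadherin, Cdh11, the cadherin of osteoblasts and fibroblasts, and Cdh24 had means of 1.44 to 1.86 RPKM and passed in neither direction. The Cdh17 mean was 0.83 RPKM without replicate 2, and the Cdh11 mean was 0.783 RPKM without replicate 1.

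**Figure D2:**
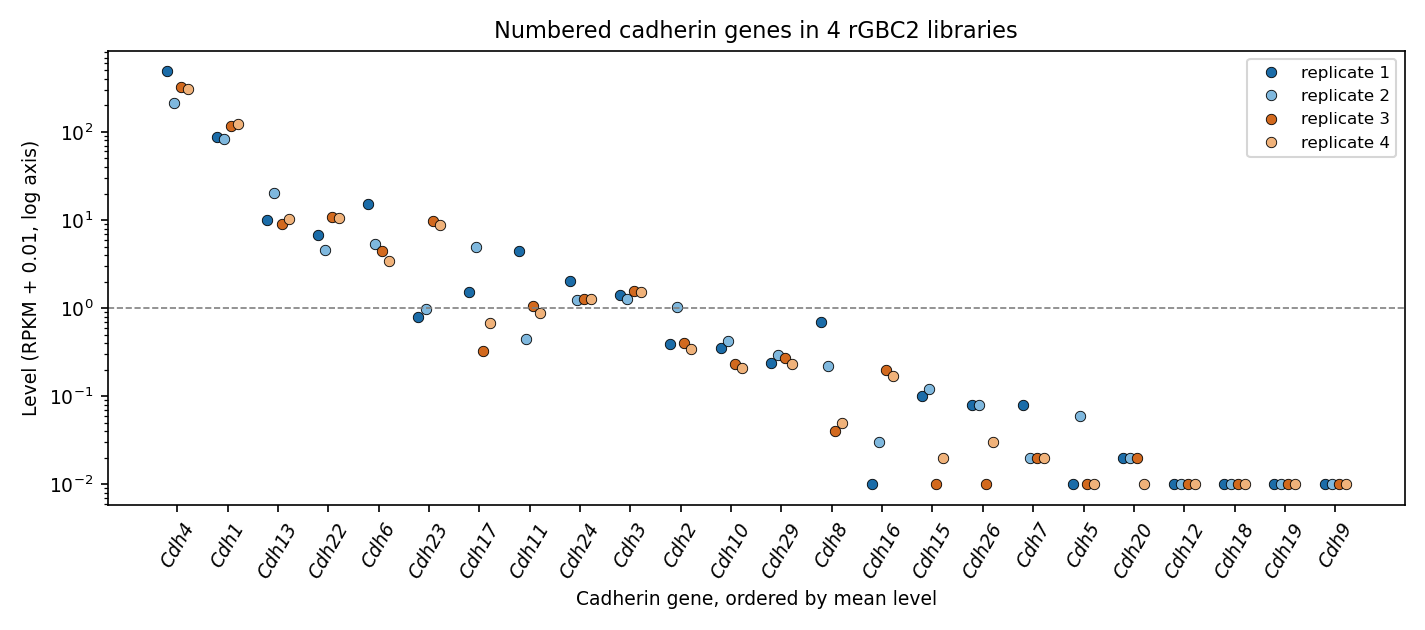
Level of 24 numbered cadherin genes as RPKM + 0.01 on a log axis, ordered by mean, with points for the 4 libraries and a dashed line at 1 RPKM. Cdh4 and Cdh1 lie far above the rest, and Cdh2 is under 1 RPKM in 3 libraries.

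Junction genes that depend on or accompany Cdh1 were present throughout. This list and those that follow were chosen with earlier results of these data known, so their counts are not an independent comparison. All 13 adherens junction and desmosome genes lay above 1 RPKM, against 65.0% of all genes tested, with a median of 56.5 RPKM, against 7.38 RPKM. Ctnnb1, beta-catenin, stood at 722 ± 118 RPKM, Ctnna1, alpha-catenin, at 207 ± 7.58 RPKM and Ctnnd1, the p120 catenin that stabilises cadherins at the surface, at 91.1 ± 20.8 RPKM (SD, n = 4). Perp, a desmosome protein, was highest of this list at 830 ± 155 RPKM, and Pvrl4, nectin 4, lowest at 9.78 ± 6.60 RPKM. All 15 tight junction and polarity genes also lay above 1 RPKM, against the same 65.0%, with a median of 38.9 RPKM. They included F11r, the adhesion molecule JAM-A, at 150 ± 25.2 RPKM, Cldn7, a claudin that binds EpCAM, at 81.9 ± 13.7 RPKM and Cldn3 at 56.5 ± 2.29 RPKM. Cldn4 was an uneven member, at 41.1 RPKM in replicate 1 and 25.5 RPKM in replicate 2, against 9.23 RPKM in replicate 3 and 9.52 RPKM in replicate 4.

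Regulators that hold cells in the epithelial state showed the same count. All 12 lay above 1 RPKM, against 65.0% of all genes tested, with a median of 18.4 RPKM, against 7.38 RPKM. Esrp1 and Esrp2, splicing factors that produce epithelial isoforms, stood at 42.3 ± 2.59 and 20.6 ± 1.45 RPKM. Grhl1, a Grainyhead factor, stood at 57.8 ± 11.9 RPKM, Grhl2, which activates Cdh1 and represses Zeb1 in other epithelia, at 3.12 ± 0.48 RPKM and Ovol1, another repressor of Zeb1, at 5.25 ± 1.00 RPKM (SD, n = 4). Ehf and Klf4, epithelial factors, were higher in replicates 1 and 2, as were 41.2% of all genes with a mean of at least 1 RPKM. Ehf stood at 95.5, 91.1, 31.5 and 26.3 RPKM in replicates 1 to 4. For Klf4 the values were 11.1, 8.00, 3.98 and 3.23 RPKM. Of 14 genes in a list of Epcam partners, 12 (85.7%) lay above 1 RPKM, against 65.0% of all genes tested. Among them were Spint2, a protease inhibitor, at 546 ± 93.7 RPKM and Cd9, a tetraspanin, at 444 ± 30.3 RPKM. Lef1, a nuclear partner of the cleaved EpCAM tail, lay below 1 RPKM at 0.13 ± 0.086 RPKM (SD, n = 4; limma, adjusted p = 1.09e-05).

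**Figure D3:**
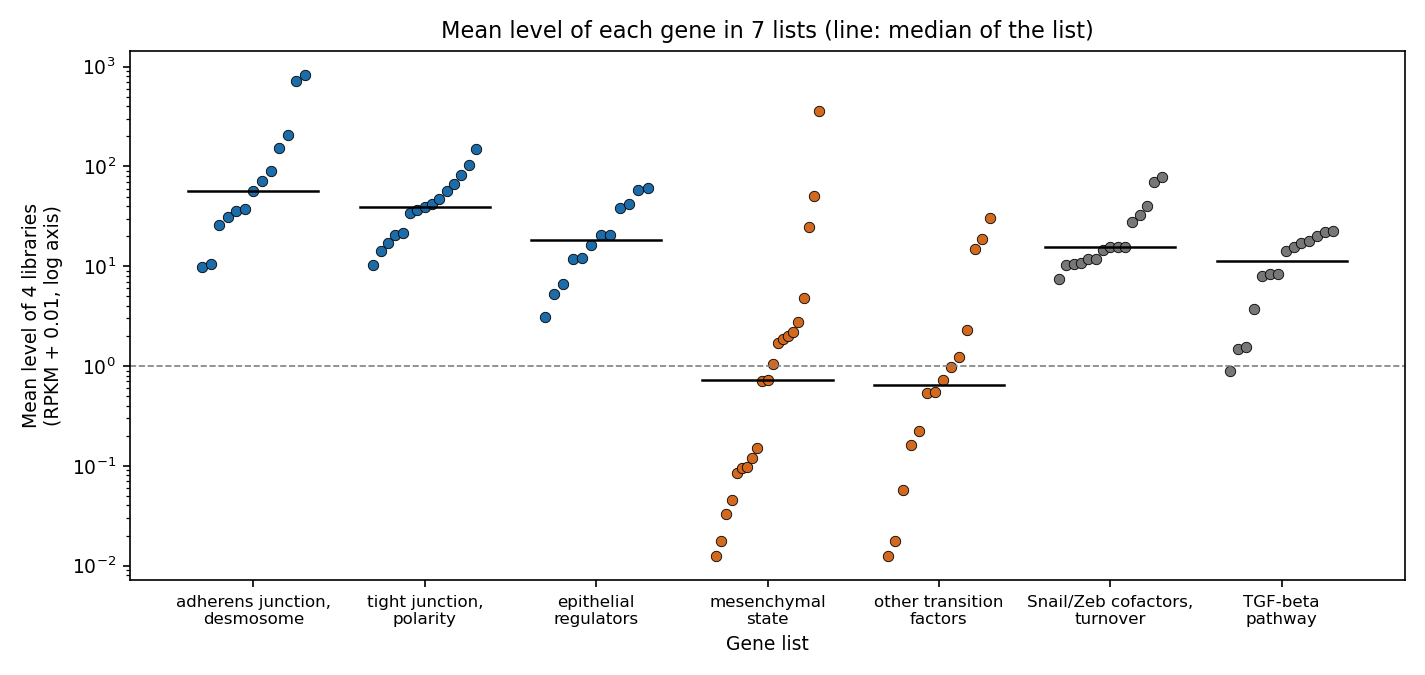
Mean level over 4 libraries of each gene in 7 lists, as RPKM + 0.01 on a log axis, with a line at the median of each list and a dashed line at 1 RPKM. All genes of the adherens junction, tight junction, epithelial regulator and cofactor lists lie above 1 RPKM, and the medians of the mesenchymal state and other transition factor lists lie below it.

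Among 21 genes of the mesenchymal state, 5 exceeded 1 RPKM, against 65.0% of all genes tested, and 10 were under it, against 26.1%, while the other 6 met neither call, with a median of 0.713 RPKM. Fn1, fibronectin, which epithelia and hepatocytes also make, stood at 363 ± 121 RPKM and Mmp14, a membrane metalloproteinase, at 50.1 ± 9.94 RPKM (SD, n = 4). Itga5, the fibronectin receptor chain, stood at 4.78 ± 2.12 RPKM and Tagln, an actin-binding protein of smooth muscle, at 2.2 ± 0.319 RPKM. Sparc, a matrix glycoprotein, stood at 0.43, 70.0, 13.9 and 14.9 RPKM in replicates 1 to 4, and its call was lost without replicate 2, 3 or 4 (limma, adjusted p = 0.0573 to 0.1). Ctgf, a matricellular protein, was at 9.96 RPKM in replicate 2 and at 0.30 to 0.49 RPKM in the others. In this list replicate 2 was the highest library for Sparc, Ctgf, Mmp14 and Tagln, but not for Fn1 or Itga5. It was the lowest for Cdh11, at 0.44 RPKM. Among members, replicate 2 was highest for Epcam as well as for Twist1, Zeb2, Snai2 and Cdh2, and lowest for Cdh1 and Vim. The share of all genes that were highest in replicate 2 was not computed. Acta2, smooth muscle actin, had 0.09 RPKM in replicate 2 and 0 elsewhere, and Lox, a collagen cross-linking enzyme, had at most 0.01 RPKM.

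Other factors able to drive the transition were also mixed. Of 14 such genes 4 exceeded 1 RPKM and 7 were under it by the same test and against the same shares, with 3 in neither class and a median of 0.629 RPKM. Sox4 stood at 30.4 ± 4.0 RPKM, Tcf3, an E-protein partner of Twist, at 18.5 ± 3.24 RPKM, Foxc1 at 15.0 ± 2.54 RPKM and Tcf4, another E-protein, at 2.31 ± 1.19 RPKM (SD, n = 4). The Tcf4 call was lost without replicate 1, 2 or 3 (limma, adjusted p = 0.0538 to 0.105). Prrx1, a mesenchymal homeobox factor, stood at 0.0475 ± 0.033 RPKM, Foxc2 at 0.01 RPKM in replicate 1 and at 0 in the others, and Gsc, goosecoid, at 0.03 RPKM in replicate 4 and at 0 in the others. Hmga2, a chromatin protein that promotes Snai1 and Twist1 transcription in other cells, stood at 2.07, 1.24, 0.31 and 0.27 RPKM in replicates 1 to 4.

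Partners and inhibitors of Twist1 were unequal. Id proteins bind E-proteins and keep them from Twist. Id3 stood at 248 ± 73.9 RPKM, Id1 at 91.1 ± 29.3 RPKM and Id2 at 76.7 ± 31.6 RPKM, while Id4 lay below 1 RPKM at 0.188 ± 0.069 RPKM (SD, n = 4; limma, adjusted p = 7.96e-06). The Id genes did not share 1 order of libraries. Id1 and Id2 were highest in replicate 2, at 110 and 114 RPKM, Id3 in replicate 4, at 309 RPKM, and Id4 in replicate 1, at 0.26 RPKM. Tcf12, an E-protein, stood at 47.6 ± 17.6 RPKM. Of the related factors, Hand1, Msc and Tcf21 were listed at 0 in all libraries. Of the 9 genes of this list that could be tested, 6 lay above 1 RPKM, against 65.0% of all genes tested, and 3 below, against 26.1%.

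Corepressors, histone-modifying enzymes and turnover factors of Snail and Zeb proteins made up a list of 15. All 15 lay above 1 RPKM, against 65.0% of all genes tested, with a median of 15.5 RPKM, against 7.38 RPKM. Ctbp1, a corepressor of Zeb1, stood at 78.2 ± 13.4 RPKM, Hdac2, a histone deacetylase, at 70.6 ± 17.8 RPKM and Kdm1a, the demethylase that Snail recruits, at 32.6 ± 1.35 RPKM (SD, n = 4). Gsk3b and Btrc, a kinase and a ubiquitin ligase that mark Snail protein for breakdown, stood at 27.5 ± 7.71 and 7.41 ± 1.44 RPKM. These genes have many other roles, and RNA levels do not measure the protein of any member.

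Among intermediate filaments, keratins stood well above vimentin. Krt8 and Krt18, the keratin pair of simple epithelium, stood at 313 ± 60.4 and 327 ± 124 RPKM, against 0.558 ± 0.415 RPKM for Vim (SD, n = 4). Of the filament genes most related to Vim, Prph, peripherin, lay above 1 RPKM at 10.1 ± 1.77 RPKM, and Des, desmin, and Gfap lay below it at 0.278 ± 0.155 and 0.483 ± 0.224 RPKM (limma, adjusted p = 0.000209 and 0.00533). Nes, nestin, stood at 4.64 ± 1.07 RPKM.

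The TGF-beta pathway, a main inducer of Snail and Zeb genes, had a share of genes above 1 RPKM near that of all genes. Of 14 genes, 11 (78.6%) lay above 1 RPKM, against 65.0% of all genes tested, and the other 3 met neither call. Their median was 11.3 RPKM, against 7.38 RPKM. Tgfb1, the ligand, stood at 22.5 ± 1.81 RPKM, its receptors Tgfbr1 and Tgfbr2 at 15.5 ± 9.30 and 17.0 ± 4.76 RPKM and Smad4, the shared signal carrier, at 22.3 ± 4.62 RPKM (SD, n = 4). Tgfbr1 stood at 19.2, 26.9, 8.39 and 7.38 RPKM in replicates 1 to 4. Among the 13 pathway genes with a mean of at least 1 RPKM, replicates 1 and 2 both exceeded replicates 3 and 4 for 9 genes, against 41.2% of all genes of that level, and the opposite order occurred for 0, against 29.7%. Among the 15 cofactor and turnover genes, 10 followed the first order and 3 the opposite one. The epithelial lists did not share 1 order. Of the 13 adherens junction and desmosome genes, 3 followed the first and 7 the opposite. Of the 15 tight junction and polarity genes, 7 followed the first and 5 the opposite, and of the 12 epithelial regulators 6 and 4. Of the 10 mesenchymal state genes of that level, 3 followed the first and 2 the opposite. This split of the libraries was noticed in these data and was not tested.

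Base composition moved with the same split. Across 11842 genes with a mean of at least 1 RPKM, the difference of replicates 1 and 2 from replicates 3 and 4 had a Spearman correlation of -0.57 with GC content and 0.25 with transcript length, as a description over genes that share the same 4 libraries. Zeb1 has a GC content of 46.1% and a log2(RPKM + 1) value 1.39 higher in replicates 1 and 2. In the second of 5 equal bins of genes by GC content, which holds it, the median difference was 0.34 and the upper quartile 0.68. Zeb2, with 44.0% GC, differed by 0.80, but its mean is under 1 RPKM, where the added 1 shrinks differences, and it belongs to no bin. Twist1, with 59.3% GC, differed by 0.31 against a median of -0.25 in the bin of highest GC content, and Cdh1 by -0.49 against 0.01 in the middle bin. The Twist1 difference averages its lowest library, replicate 1 at 3.67 RPKM, with its highest, replicate 2 at 16.3 RPKM, so the pairs of libraries overlapped. The part of base composition, or of the Y-linked reads, in the Zeb values was not tested.

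**Figure D4:**
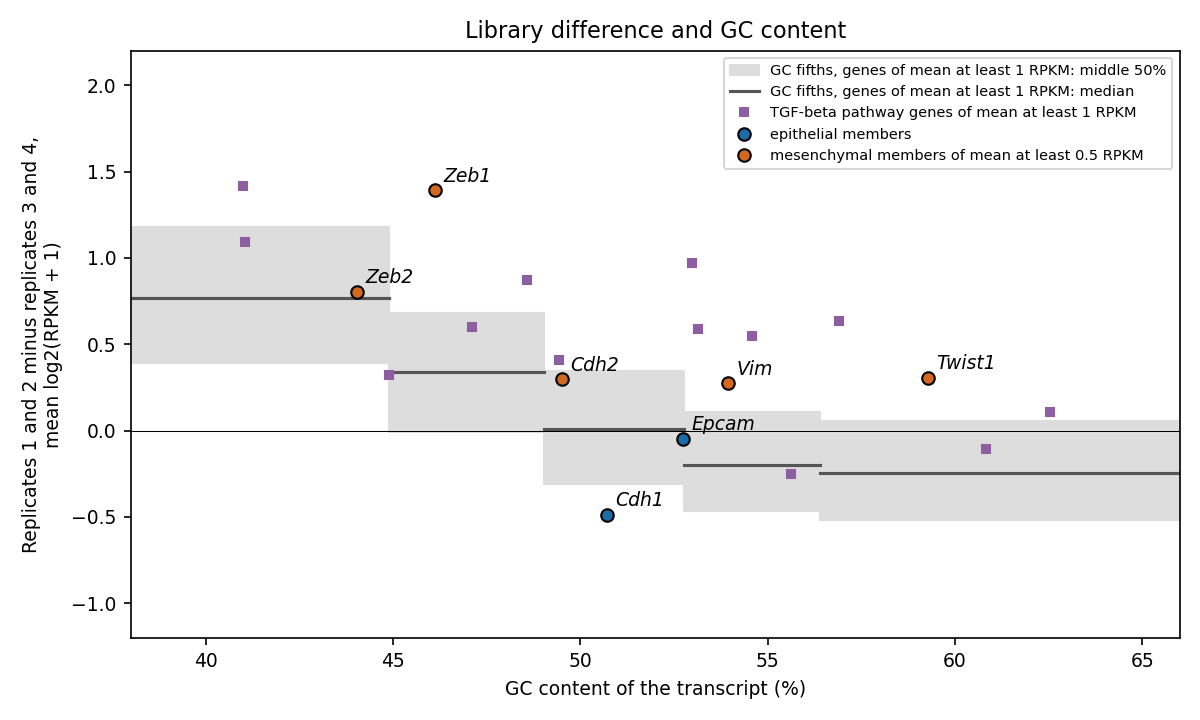
Difference of replicates 1 and 2 minus replicates 3 and 4 in mean log2(RPKM + 1) against the GC content of the transcript, for members with a mean of at least 0.5 RPKM and TGF-beta pathway genes, over grey bands for the middle 50% of genes with a mean of at least 1 RPKM in 5 bins of GC content. Zeb1, at 1.39, lies above the upper edge of its band at 0.68, while Zeb2, Cdh2 and Vim have means under 1 RPKM and belong to no bin.

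Markers of other cells that transcribe the mesenchymal members were mostly low. None of 10 fibroblast markers lay above 1 RPKM, against 65.0% of all genes tested, and 7 lay below, against 26.1%. Their summed level was 7.05 RPKM in replicate 1, the library with the highest Vim and Zeb1, and 2.42 to 2.93 RPKM in the others. Col3a1 had 0.01 RPKM in replicate 4 and 0 elsewhere, and Lum was listed at 0 in all. In replicate 1 Pdgfra stood at 3.12 RPKM and Thy1 at 1.06 RPKM. None of 10 endothelial markers lay above 1 RPKM and 8 lay below, against the same shares. Their sums were 1.38 to 1.71 RPKM, with Cldn5 listed at 0 in all libraries and Cdh5 at 0 in 3. Of 10 macrophage markers 3 lay above 1 RPKM and 6 below, against the same shares. Their sums of 153 to 191 RPKM were made up mainly of Cd68 at 138 ± 19.6 RPKM (SD, n = 4). Csf1r, a growth factor receptor, stood at 16.1, 17.0, 5.14 and 5.31 RPKM in replicates 1 to 4 and was higher in replicates 1 and 2, as Zeb1 and Zeb2 were. That order held for 41.2% of all genes with a mean of at least 1 RPKM, and the opposite order for 29.7%. Cd68 followed neither order. C1qa, a complement chain, stood at 6.77, 6.26, 23.7 and 23.4 RPKM and was higher in replicates 3 and 4, while Emr1 was listed at 0 in all libraries and Ptprc at 0 to 0.01 RPKM. Of 8 smooth muscle markers 3 lay above 1 RPKM, namely Myh11, Smtn and Tagln, and 5 below, against the same shares. Their sums were 13.6 to 33.0 RPKM. Myh11 stood at 19.4, 1.6, 10.3 and 9.86 RPKM in replicates 1 to 4, and Smtn at 10.3 ± 1.51 RPKM (SD, n = 4). Of 10 neural markers 2 lay above 1 RPKM and 3 below, against the same shares. Those above were Ncam1 at 58.9 ± 6.63 RPKM and L1cam at 39.6 ± 6.03 RPKM, and the neural sums were 96.2 to 119 RPKM. The part of such cells in the Vim, Twist1 and Zeb1 values was not tested.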

How the data were processed

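The authors deposited RPKM values rounded to 2 decimals, with 1 row per gene symbol and RefSeq transcript. CASAVA 1.8.2, Bowtie and build mm9 are named in the submitters' processing notes. The sources used here do not state the counting program or its strand setting. The table has 6 further per-sample columns that match no sample here, and they were not used. Coordinates are those of the table with starts shifted to count from 1, since 90.2% of 993 olfactory receptor spans were then whole codons.

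Depth was fitted to low RPKM values of those receptor genes (14 to 32 values per library, all within 0.0051 RPKM of whole reads) between 10 M and 40 M reads, because multiples of a step fit too. Reads of a member were estimated from this depth and a GENCODE M21 transcript length. Each 50-base window of a member was searched in other genes' transcripts, and Twist2 shared 50% of them with its antisense gene, Zeb2 4.61% and Snai2 0.963%.

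Levels were tested on log2(RPKM + 1) against 1 RPKM with limma 3.58.1 (R 4.3.3, moderated variances with a trend, two-sided). Genes at 0 in all 4 libraries (3458) were left out, p-values of the 16919 others were adjusted by Benjamini-Hochberg, and calls used 0.05. The test was tried on simulated data in which each gene's deviations were shuffled between libraries. That removes the likeness of replicates 3 and 4, so the trial could not show whether it affects the calls. Gene pairs were compared within libraries by an exact sign-flip permutation test. Named genes were the members, in each list the 6 highest and 3 lowest by mean, those at 0, and the 2 most variable of mean at least 1 RPKM, and cadherins of mean at least 1 RPKM. The members and lists were chosen with earlier results of these data known. The miR-200 precursors fixed as a list have no row and were not analysed here. The result for 1 gene of the Epcam partner list is not reported here.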

Additional observations from a re-analysis of the deposited data

Results flagged for a closer look

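In 119 groups of 4 values tested for 1 library far from the others (Dixon's ratio above 0.829), 17 were marked. Chance marks about 1 in 20 groups of independent values, a rate that cannot be set against this count, because the named genes include some chosen for their spread and replicates 3 and 4 were much alike. No explanation was tested. Among members, replicate 2 stood apart for Cdh2 at 1.02 RPKM and for Snai2 at 0.30 RPKM. Twist2 was marked in replicate 4 at 0.02 RPKM, where the difference from 0.03 RPKM is that of 1 read at a greater depth. Replicate 2 also stood apart for Ctgf at 9.96 RPKM, Mmp14 at 64.9 RPKM, Cdh13 at 20.4 RPKM and Spp1, osteopontin, at 1332 RPKM. Replicate 1 stood apart for Tgfbr3 at 20.25 RPKM, Tgfb1 at 25.25 RPKM, Cdh6 at 15.3 RPKM, Cdh11 at 4.49 RPKM, Cdh24 at 2 RPKM, Pdgfra at 3.12 RPKM, Fbxl14, a ubiquitin ligase subunit for Snail, at 11.8 RPKM and Cd68 at 167 RPKM, and as the lowest library for Ins2 at 1091 RPKM. Replicate 4 was highest for Cldn3 at 59.9 RPKM.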

How the results depend on the processing

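The direction of all 5 gene pair differences was the same under the 8 alternatives tried. Epithelial minus mesenchymal kept its sign, and moved by more than 1 SD, being 6.21 as reported, 7.68 with a pseudocount of 0.1 and 6.72 with values scaled to the same sum (TPM), a scaling that raised the median of all genes by 0.79 on the log2 scale. The count of genes below 1 RPKM was 7777 with all genes fitted and 1889 with genes of mean RPKM of at least 0.1, against 4423, by the construction of those filters. Among members, Cdh1, Epcam, Snai1 and Twist1 kept their calls under every alternative, as did Snai2, and Twist2 wherever it was fitted. Zeb2, which passed in neither direction, changed sign to 0.34 with TPM, 0.29 at a level of 0.5 RPKM, 0.027 without replicate 4 (-0.30 without replicate 2 being the other extreme) and 0.0052 with replicates 3 and 4 averaged, an alternative chosen after seeing the data. Against 0.5 RPKM the differences of Cdh2 and Vim were 0.0064 and 0.020. Of the 10 members, 3 to 4 lay above 1 RPKM and 3 to 5 below under the alternatives that kept that level. Against 2 RPKM 3 lay above and 6 below, and against 0.5 RPKM 4 lay above and 3 below. With 1 estimated read per library, Twist2 is limited by depth, and the SDs of Snai1 and Snai2 include counting error. No paired analysis was possible because the series has 1 group.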

Other observations

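The 2 most abundant mesenchymal members had a wider spread between libraries than the epithelial ones, a difference that was not tested. The highest library exceeded the lowest 1.47-fold for Cdh1 and 1.49-fold for Epcam, against a median of 1.70-fold over 11955 genes with a mean of at least 1 RPKM and no library at 0. For Twist1 the ratio was 4.45-fold and for Zeb1 4.87-fold, and 7.27% and 6.14% of those genes had a larger one. Their highest libraries differed, replicate 2 for Twist1 and replicate 1 for Zeb1.

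Surface and filament genes usually described in neurons and endocrine cells were among the genes with levels above that of Cdh2. Beside Cdh4, these were Ncam1, L1cam and Prph, which encodes peripherin. L1cam stood at 34.96, 33.9, 45.7 and 43.9 RPKM and Ncam1 at 51.2, 59.9, 67.2 and 57.3 RPKM in replicates 1 to 4, while the neuronal gene Gap43 and the glial gene Sox10 were at most 0.10 RPKM. These genes were picked out after their values were seen.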
